A study of Mus musculus with 12 samples.

Results

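The sterol synthesis and SREBP pathway genes described here are 31 mouse genes chosen by symbol: 20 enzymes that build cholesterol, 5 genes of the SREBP system that senses sterols, 1 carrier of cholesterol inside the cell and 5 genes that supply or modify fatty acids. All 31 had a row among the 23234 gene symbols of the deposited table, and all 31 were among the 13433 genes tested, those with 1 FPKM or more in 4 or more of the 12 libraries. FPKM scale the fragments of a gene to its length and to the depth of the library. They remain relative to what else a library holds, so comparisons between libraries depend on the scaling. Summed over all genes, FPKM ran from 396800 in day 60 replicate 4 to 786400 in isolated islet replicate 4. Pancreatic islets of C57BL/6 mice were profiled by RNA sequencing. There were 3 groups of 4 libraries each: islets 60 days after transplantation, islets 120 days after transplantation and isolated islets that had not been transplanted. The grafts lay in the inguinal subcutaneous white adipose tissue, per the title of the study. Age, sex, the state of the recipients and any pooling of animals are not stated in the labels, which also do not say whether each library came from its own animal. The spread behind the p-values may thus be technical.

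Cholesterol is built from acetyl-CoA through mevalonate, isoprenoids, squalene and lanosterol, in a chain of enzymes of the cytosol and the endoplasmic reticulum. The transcription factor SREBP-2, made from Srebf2, drives most genes of this chain, and SREBP-1, made from Srebf1, drives those of fatty acid synthesis as well. Both are held in the endoplasmic reticulum by their escort Scap, which is kept there by the INSIG proteins when sterols are plentiful and carries them to the Golgi for cleavage when sterols are scarce. In islets, membrane cholesterol is known to bear on the exocytosis of insulin granules, and fat tissue is known for active fatty acid synthesis.

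The libraries differed in the cells they held. The summed level of 21 adipocyte markers was 521 to 17300 FPKM at day 60 and 434 to 1570 FPKM at day 120, against 110 to 116 FPKM in isolated islets. Of these 21 markers, 18 were higher and 1 lower at day 60, and 12 were higher and 1 lower at day 120. At the same limma adjusted p under 0.05, 31.3% of all genes tested were higher and 12.3% lower at day 60. At day 120 these shares were 24.3% and 7.03%. All 13 fibroblast markers were higher at day 60 and 12 of 13 at day 120, and of 15 macrophage markers 14 were higher at day 60 and 12 at day 120. The 17 acinar markers summed to 16.2 to 24.4 FPKM at day 60 and 9.5 to 15.9 FPKM at day 120, against 8650 to 97900 FPKM in isolated islets, with 5 of them at 0 in every day 60 library and 6 in every day 120 library. Day 60 replicate 1 had the highest adipocyte sum, and its geometric mean over 32 endocrine genes was 44.8 FPKM, against 116 to 162 FPKM in the other day 60 libraries. Isolated islet replicate 1 had the lowest acinar sum of its group. In such bulk samples, fewer cells of a type and less RNA per cell cannot be told apart.

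At day 60, 7 of the 31 genes rose against isolated islets and 2 fell. The risers were the early and late sterol enzymes Acat2, Mvk, Nsdhl, Ebp and Sc5d, the SREBP retention gene Insig2 and the acetyl-CoA synthetase Acss2. The fallers were Srebf2, the gene of SREBP-2, and the fatty acid elongase Elovl6. At day 120, 5 genes rose, namely Mvk, Nsdhl, Dhcr7, Insig2 and Acss2, and Elovl6 fell. Mvk, Nsdhl, Insig2, Acss2 and Elovl6 thus passed in both comparisons, which share the same isolated islets.

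These 9 calls at day 60 were 29% of the 31 genes, where 43.7% of all genes tested passed the same threshold, a limma adjusted p under 0.05. By direction, 31.3% of all genes passed as higher and 12.3% as lower. The 6 calls at day 120 were 19.4% of the 31 genes, against 31.4% of all genes, 24.3% higher and 7.03% lower. The median log2 change of the 31 genes was 0.20 at day 60 and 0.25 at day 120, beside 0.265 and 0.302 over all genes tested. As deposited, the share that passed was below the background at both times, but at day 60 this order depended on the setting. Upper-quartile scaling gave 45.2% of the 31 genes against 42.5% of all genes, scaling to the sum without hormone and acinar genes 41.9% against 37.4%, and the fit without day 60 replicate 2 gave 41.9% for both. At day 60 the libraries of the grafts and of the isolated islets did not overlap for 7 of the 31 genes, 5 higher and 2 lower, beside 31.1% of all genes (22% higher and 9.01% lower). At day 120 they did not overlap for 7, with 6 higher and 1 lower, beside 35.5% of all genes (28.3% higher and 7.24% lower).

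The balance of rises and falls depended on the scaling of the libraries. Upper-quartile scaling moved the day 60 median of all genes to 0.133 and called 7 members higher and 7 lower, the 5 further fallers being Fdps, Fdft1, Sqle, Stard4 and Acly. Quantile normalization moved that median to -0.04 and called 4 higher and 7 lower, losing the rises of Acat2, Mvk and Nsdhl (limma adjusted p = 0.0613, 0.0729 and 0.0805). Scaling to the sum of all genes but the hormone and acinar genes moved it to -0.02 and called 6 higher and 7 lower, losing the rise of Insig2 (limma adjusted p = 0.0608). At day 120, upper-quartile scaling called 4 higher and 2 lower, and quantile normalization 2 higher and 3 lower. Scaling to the endocrine genes left 2 calls at day 60, the rises of Insig2 and Acss2, and 0 at day 120. It moved the median of all genes to 0.445 at day 60 and -0.098 at day 120. The log2 changes of Acat2, Mvk, Nsdhl, Ebp and Sc5d at day 60 were then 1.22, 1.38, 1.215, 1.16 and 1.22, larger than as deposited, but did not pass. At day 120 the rises of Mvk, Nsdhl, Dhcr7, Insig2 and Acss2 became smaller. This scaling also lowered the number of calls over all genes. Of all genes, it called 23.7% at day 60 and 4.87% at day 120. No gene that passed in either fit changed direction under any setting tried. Relative to the median of all genes at day 60, Acss2 was higher by 1.03, Mvk by 0.88, Insig2 by 0.81, Sc5d by 0.75, Nsdhl and Acat2 by 0.73 and Ebp by 0.69, while Elovl6 stood at -1.22 and Srebf2 at -1.18 (all log2).

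**Figure D1:**
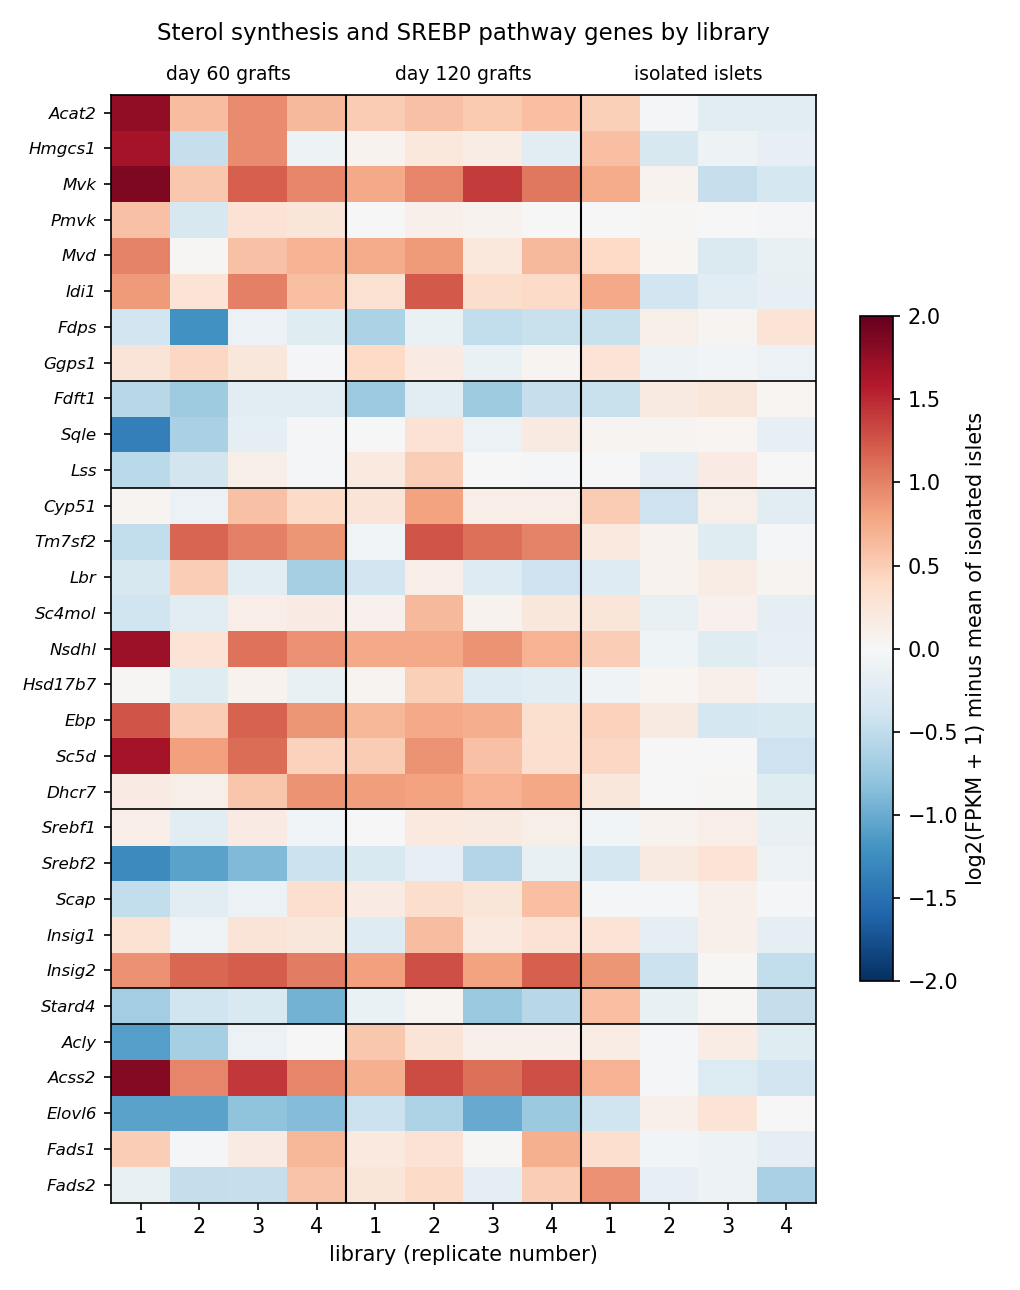
Level of each of the 31 genes (rows, by role) in each of the 12 libraries (columns, by replicate number), as log2(FPKM + 1) minus the mean of the 4 isolated islet libraries. Red is higher and blue lower. Acss2 and Insig2 are red in all 8 graft libraries and in isolated islet replicate 1, and Elovl6 is blue in all 8 graft libraries.

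Promoter sequence was found in RefSeq (build GRCm38.p6) for 26 of the 31 genes, as the 250 bases before and the 50 bases after the annotated start, taken at the most upstream start where several are listed. Of these 26 promoters, 21 (80.8%) held the letters CCAAT on either strand, the box bound by the SREBP partner NF-Y, against 38% of all 27025 genes with a RefSeq promoter. Those 27025 genes were not limited to the genes tested here, while the 26 were all tested, so the sets compared are unlike. At least 2 such boxes stood in 11 of the 26 (42.3%), against 12.1% of all genes. The letters TCACNCCAC, a form of the sterol regulatory element, stood in 1 of the 26, that of Hmgcs1, and in 1.22% of all genes. The Sp1 box GGGCGG stood in 21 of the 26 (80.8%), against 35.9% of all genes. Such a match is a description of letters and not of binding. Shown here are Mvk and Nsdhl, the sterol enzymes that passed at both times, the paralogs Insig2 and Insig1, of which the first rose and the second did not pass, and Hmgcs1 with its sterol element letters. Insig2 has 3 listed starts and Insig1 has 1, and FPKM per gene do not tell which start was used. Capitals mark CCAAT boxes on either strand and, in Hmgcs1, also the TCACNCCAC match. None of the marked motifs overlaps another.
Mvk, chr5:114444019-114444318, plus strand: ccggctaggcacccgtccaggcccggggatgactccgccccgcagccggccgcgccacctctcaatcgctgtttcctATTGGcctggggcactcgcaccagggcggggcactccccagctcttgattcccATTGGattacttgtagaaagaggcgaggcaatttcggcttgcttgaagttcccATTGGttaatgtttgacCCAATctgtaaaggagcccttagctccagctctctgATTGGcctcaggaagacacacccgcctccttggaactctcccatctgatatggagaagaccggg
Nsdhl, chrX:72918271-72918570, plus strand: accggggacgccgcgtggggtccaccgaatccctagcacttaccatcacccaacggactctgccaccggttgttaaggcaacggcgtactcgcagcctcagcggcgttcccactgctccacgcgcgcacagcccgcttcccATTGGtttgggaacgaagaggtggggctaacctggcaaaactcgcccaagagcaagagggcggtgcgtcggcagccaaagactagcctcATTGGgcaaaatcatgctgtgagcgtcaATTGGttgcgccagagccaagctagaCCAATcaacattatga
Insig2, chr1:121332540-121332839, minus strand: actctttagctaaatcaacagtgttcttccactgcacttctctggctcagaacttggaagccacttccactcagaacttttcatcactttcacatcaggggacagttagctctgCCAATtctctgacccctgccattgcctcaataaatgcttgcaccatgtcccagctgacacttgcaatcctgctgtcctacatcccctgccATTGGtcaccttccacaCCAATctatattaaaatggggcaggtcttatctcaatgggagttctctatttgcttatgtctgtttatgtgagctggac
Insig1, chr5:28071162-28071461, plus strand: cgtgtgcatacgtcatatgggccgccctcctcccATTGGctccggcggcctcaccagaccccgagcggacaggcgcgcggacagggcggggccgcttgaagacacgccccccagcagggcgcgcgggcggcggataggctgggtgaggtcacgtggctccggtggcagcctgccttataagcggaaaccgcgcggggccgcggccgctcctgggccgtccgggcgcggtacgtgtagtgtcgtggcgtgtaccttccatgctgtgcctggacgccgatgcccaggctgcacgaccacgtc
Hmgcs1, chr13:119690101-119690400, plus strand: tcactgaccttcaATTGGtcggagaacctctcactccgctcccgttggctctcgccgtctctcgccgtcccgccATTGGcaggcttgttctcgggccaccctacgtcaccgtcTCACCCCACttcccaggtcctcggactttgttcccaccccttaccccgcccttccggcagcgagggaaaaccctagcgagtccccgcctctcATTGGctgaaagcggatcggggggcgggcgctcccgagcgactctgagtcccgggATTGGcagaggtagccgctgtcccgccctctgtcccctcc
The Mvk window held 5 boxes, the largest number among the 26, Nsdhl and Hmgcs1 held 4 each, Insig2 held 3 and Insig1 held 1. Of the other genes that rose at either time, Ebp held 2, Sc5d and Acss2 held 1 each, and Acat2 and Dhcr7 held 0. Sc4mol, Hsd17b7 and Ggps1, which did not pass, held 3 each, and the other genes that did not pass held 0 to 2. Whether box number goes with the calls was not tested.

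The first 8 enzymes lead from acetyl-CoA to the isoprenoids, and their median log2 change was 0.54 at day 60 and 0.34 at day 120. Acat2, the cytosolic thiolase that joins the first acetyl-CoA units, and Mvk, mevalonate kinase, were the 2 of these 8 that passed at day 60, and Mvk the 1 that passed at day 120. The calls were 25% and 12.5% of the 8, beside 43.7% and 31.4% of all genes. Acat2 had 12, 4.82, 6.32 and 4.96 FPKM in day 60 grafts and 4.4, 4.73, 4.46 and 4.8 FPKM in day 120 grafts, against 4.29, 2.75, 2.25 and 2.26 FPKM in isolated islets. Every graft library lay above every isolated islet library, by a narrow margin over isolated islet replicate 1, and day 60 replicate 1 stood far above the rest. The log2 change of Acat2 was 0.99 ± 0.25 (SE) at day 60 (limma adjusted p = 0.00812) and 0.555 ± 0.25 at day 120 (limma adjusted p = 0.105).

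Mvk had 10.7, 3.67, 6.31 and 5.28 FPKM in day 60 grafts and 4.44, 5.31, 7.41 and 5.64 FPKM in day 120 grafts, against 4.37, 2.36, 1.32 and 1.5 FPKM in isolated islets. All day 120 libraries lay above the isolated islets, while day 60 replicate 2 lay below isolated islet replicate 1. Mvk averaged 6.48 ± 2.99 FPKM at day 60 and 5.70 ± 1.25 FPKM at day 120, against 2.39 ± 1.40 FPKM in isolated islets (SD, n = 4 each). Its log2 change was 1.14 ± 0.31 at day 60 (limma adjusted p = 0.0108) and 1.05 ± 0.31 at day 120 (limma adjusted p = 0.0238). The day 120 call was lost in 8 of the other settings, among them those without isolated islet replicate 2, 3 or 4 and without day 120 replicate 2, 3 or 4.

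The other genes of this stretch did not pass at either time. Hmgcs1, the synthase that makes HMG-CoA, had 33.2, 6.9, 19.9 and 9.11 FPKM at day 60 and 8.4 to 11.6 FPKM at day 120, against 7.67 to 15.4 FPKM in isolated islets. Its high values lay in day 60 replicates 1 and 3, while replicate 4 lay within the isolated islet range and replicate 2 just under it, and the log2 change at day 60 was 0.51 ± 0.38. A noncoding gene on the opposite strand shares 12.1% of its exonic bases. Mvd, the decarboxylase, averaged 4.21 ± 1.36 FPKM at day 60 and 4.26 ± 0.94 FPKM at day 120, against 2.45 ± 0.73 FPKM in isolated islets (SD, n = 4 each), with limma adjusted p = 0.0633 and 0.0629. Idi1, the isomerase of the isoprenoid unit, had 7.62 to 13.4 FPKM at day 60 and 7.84 to 15.8 FPKM at day 120, against 4.47 to 11.1 FPKM in isolated islets, where 11.1 FPKM was replicate 1 and the other 3 lay at 5.42 or less. Without isolated islet replicate 1, Mvd and Idi1 passed as higher at both times.

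Pmvk, phosphomevalonate kinase, averaged 22.8 ± 5.82 FPKM at day 60 and 19.9 ± 0.75 FPKM at day 120, against 19.3 ± 0.38 FPKM in isolated islets (SD, n = 4 each), where its coefficient of variation, 1.99%, was the lowest of the 31 genes. Ggps1, whose product branches off towards protein prenylation, had 9.53 to 13.3 FPKM at day 60 and 8.73 to 13.1 FPKM at day 120, against 8.89 to 11.9 FPKM in isolated islets. Fdps, farnesyl diphosphate synthase, was the member of this stretch with a negative log2 change, -0.49 ± 0.24 at day 60 and -0.425 ± 0.24 at day 120. Its levels were 16.9 to 36.9 FPKM at day 60 and 25.7 to 36.6 FPKM at day 120, against 29.2 to 48.8 FPKM in isolated islets. A same-strand gene model shares 26.7% of its exonic bases.

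None of the 3 enzymes of the middle of the chain passed at either time, and their median log2 change was -0.42 at day 60 and 0.09 at day 120. Fdft1, squalene synthase, had 13.1 to 19 FPKM at day 60 and 13 to 19 FPKM at day 120, against 16 to 26 FPKM in isolated islets. Its log2 change was -0.42 ± 0.20 at day 60 and -0.52 ± 0.20 at day 120 (limma adjusted p = 0.0588), and it passed as lower at both times without isolated islet replicate 1. Fdft1 shares 18.3% of its exonic bases with Ctsb on the opposite strand, and the library kit is not stated to mark strand. Sqle, the monooxygenase that commits squalene to sterols, had 11.7, 19.6, 27.8 and 31.1 FPKM at day 60 and 31.8, 38.7, 28.8 and 35.7 FPKM at day 120, against 32.9, 32.9, 32.4 and 28.2 FPKM in isolated islets. Its lowest value was in day 60 replicate 1, the library in which Hmgcs1, Mvk and Nsdhl were highest, and its log2 change at day 60 was -0.55 ± 0.25. Lss, lanosterol synthase, had 4.11 to 7.02 FPKM at day 60 and 6.26 to 9.4 FPKM at day 120, against 5.5 to 7.34 FPKM in isolated islets.

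Of the 9 enzymes that turn lanosterol into cholesterol, 3 rose at day 60 and 2 at day 120, with a median log2 change of 0.44 and 0.58. The calls were 33.3% and 22.2% of the 9, beside 43.7% and 31.4% of all genes. Nsdhl, which removes the methyl groups at the fourth carbon together with Sc4mol and Hsd17b7, had 12.7, 4.07, 7.84 and 6.9 FPKM at day 60 and 6.04, 6.1, 6.83 and 5.75 FPKM at day 120, against 4.86, 2.96, 2.52 and 2.75 FPKM in isolated islets. The day 120 libraries lay close together and above all isolated islets, while day 60 replicate 2 fell below isolated islet replicate 1. The log2 change of Nsdhl was 1.00 ± 0.26 at day 60 (limma adjusted p = 0.0101) and 0.78 ± 0.26 at day 120 (limma adjusted p = 0.0412), the day 120 value being the call with the largest adjusted p among those made. That day 120 call was lost in 13 of the other settings.

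Ebp, the sterol isomerase, had 21.5, 12.3, 20.4 and 16.4 FPKM at day 60 and 14, 15, 14.5 and 10.8 FPKM at day 120, against 12, 9.68, 6.42 and 6.64 FPKM in isolated islets. Sc5d, the desaturase of the next step, had 27, 14.6, 18.2 and 11.3 FPKM at day 60 and 11.7, 15.6, 12.4 and 10.2 FPKM at day 120, against 10.8, 7.91, 7.9 and 5.65 FPKM in isolated islets. For both genes every day 60 library lay above every isolated islet library, and the lowest day 120 library, replicate 4, lay just under isolated islet replicate 1. At day 60 the log2 change was 0.955 ± 0.22 for Ebp (limma adjusted p = 0.00558) and 1.01 ± 0.25 for Sc5d (limma adjusted p = 0.00741). At day 120 it was 0.62 ± 0.22 (limma adjusted p = 0.0511) and 0.58 ± 0.25 (limma adjusted p = 0.0909), and both passed as higher without isolated islet replicate 1.

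Dhcr7, the reductase of the last step, had 5.65, 5.41, 7.66 and 10 FPKM at day 60 and 9.49, 9.27, 8.6 and 9.08 FPKM at day 120, against 5.9, 4.88, 5.03 and 3.97 FPKM in isolated islets. The day 120 libraries stood together above all isolated islets, and day 60 replicates 1 and 2 lay within the isolated islet range. The log2 change of Dhcr7 was 0.44 ± 0.19 at day 60 (limma adjusted p = 0.0758) and 0.775 ± 0.19 at day 120 (limma adjusted p = 0.0116). The day 120 call was lost with quantile normalization (limma adjusted p = 0.0615), with scaling to the sum without hormone and acinar genes (0.0709) and with scaling to the endocrine genes (0.454). Dhcr7 was the 1 member that passed at day 120 and not at day 60, but the day 120 grafts themselves differed from the day 60 grafts by a log2 of 0.34 ± 0.19, which did not pass (limma adjusted p = 0.518).

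The other 6 enzymes of this stretch did not pass. Tm7sf2 and Lbr carry out the same reduction of a sterol double bond, Lbr as a protein of the inner nuclear membrane. Tm7sf2 had 1.99, 8.37, 7.39 and 6.71 FPKM at day 60 and 3.01, 9.05, 7.99 and 7.36 FPKM at day 120, against 3.77, 3.41, 2.56 and 3.09 FPKM in isolated islets. In both graft groups replicate 1 lay within or below the isolated islet range and the other 3 libraries lay above it. Without day 60 replicate 1, Tm7sf2 passed as higher at both times, and an overlapping gene on the same strand shares 12.1% of its exonic bases. Lbr had 5.35 to 13.1 FPKM at day 60 and 6.51 to 10 FPKM at day 120, against 7.38 to 10.1 FPKM in isolated islets. Cyp51, the lanosterol demethylase, averaged 8.997 ± 2.16 FPKM at day 60 and 9.77 ± 2.59 FPKM at day 120, against 7.65 ± 2.48 FPKM in isolated islets (SD, n = 4 each). Sc4mol, the methyl oxidase now called Msmo1, had 21.3 to 32.2 FPKM at day 60 and 29.8 to 45.4 FPKM at day 120, against 24.9 to 34 FPKM in isolated islets, and Hsd17b7, the lowest of the 31 genes in every group, averaged 1.54 ± 0.25 FPKM at day 60 and 1.74 ± 0.68 FPKM at day 120, against 1.66 ± 0.16 FPKM in isolated islets (SD, n = 4 each).

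Over all 20 sterol enzymes, 5 rose and 0 fell at day 60, and 3 rose and 0 fell at day 120, with a further 15 and 17 that did not pass. The calls were 25% and 15% of the 20, below the 43.7% and 31.4% of all genes (31.3% and 24.3% higher). The summed level of the 20 enzymes was 282.5, 198.7, 289.5 and 256.3 FPKM at day 60 and 234.5, 304.7, 236.5 and 240.5 FPKM at day 120, against 245.4, 226.8, 230.8 and 217.8 FPKM in isolated islets. The summed level of the chain overlapped between the groups. The abundant enzymes Fdps, Sqle, Sc4mol and Fdft1 were not among those that passed.

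**Figure D2:**
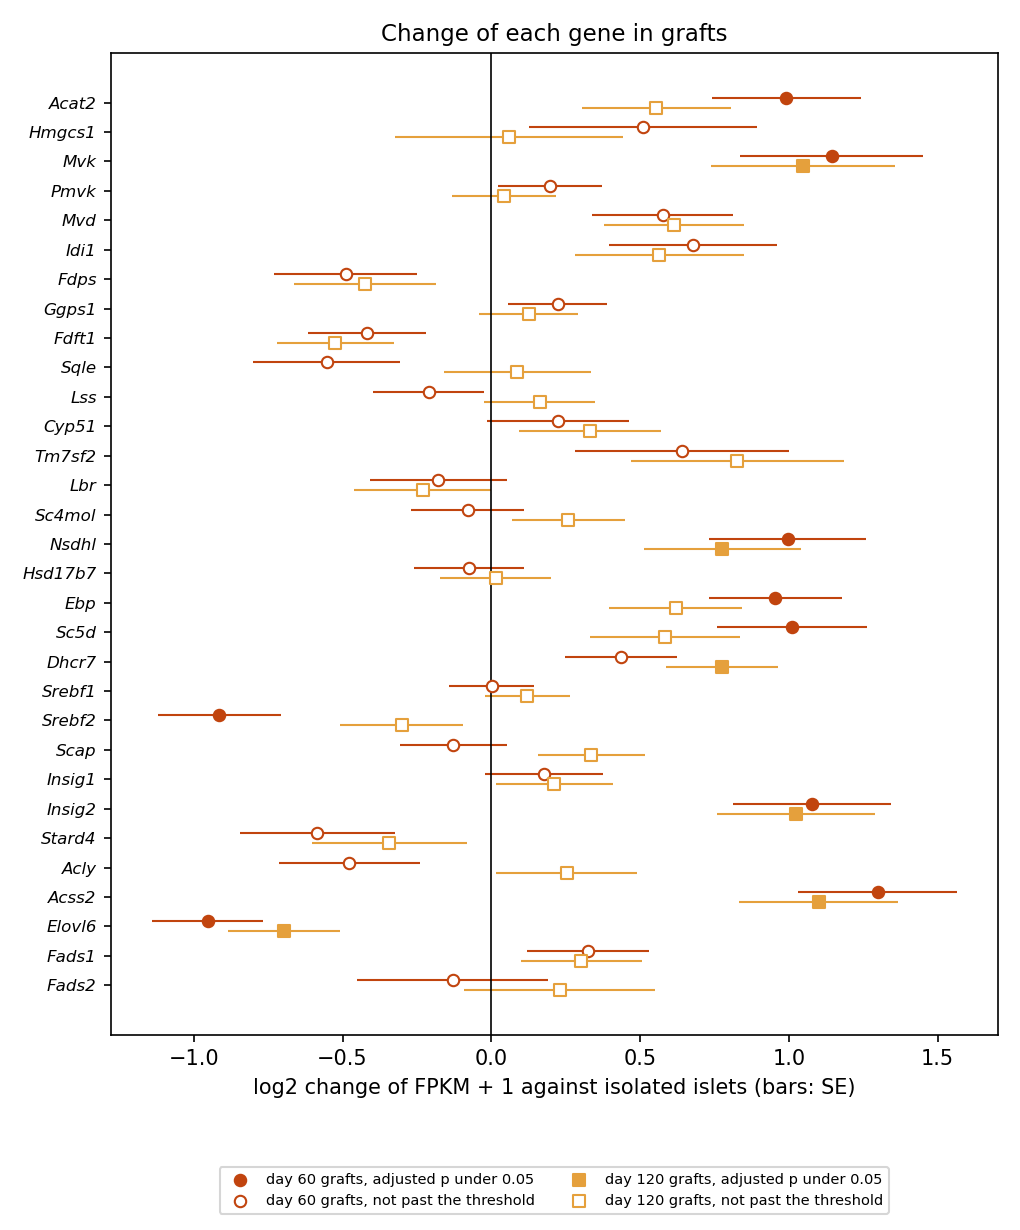
Log2 change of FPKM + 1 against isolated islets (x axis, bars are SE from limma) for the 31 genes (y axis, by role) in day 60 grafts (circles) and day 120 grafts (squares), filled where the adjusted p was under 0.05. The filled points include Acss2 at 1.30 and 1.10, Insig2 at 1.08 and 1.02 and Elovl6 at -0.95 and -0.70, for day 60 and day 120.

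In the SREBP system, Insig2 rose at both times and Srebf2 fell at day 60, while Srebf1, Scap and Insig1 did not pass. Insig2 had 13.5, 16, 16.8 and 14.6 FPKM at day 60 and 12.5, 17.7, 12.4 and 16.6 FPKM at day 120, against 13.2, 4.73, 6.82 and 4.46 FPKM in isolated islets. Isolated islet replicate 1 lay with the grafts and the other 3 isolated islets lay far below them. The log2 change of Insig2 was 1.08 ± 0.27 at day 60 (limma adjusted p = 0.00711) and 1.02 ± 0.27 at day 120 (limma adjusted p = 0.0148). The day 60 call was lost with scaling to the sum without hormone and acinar genes (limma adjusted p = 0.0608). The day 120 call was lost without isolated islet replicate 2 or 4 and with scaling to the endocrine genes.

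Insig1, its more abundant paralog and itself a known SREBP target, had 59, 45.1, 57 and 55.7 FPKM at day 60 and 39.5, 73.8, 54.7 and 58.3 FPKM at day 120, against 57.6, 41.9, 50.9 and 41.7 FPKM in isolated islets. The 3 groups overlapped, and the log2 change was 0.18 ± 0.20 at day 60 and 0.21 ± 0.20 at day 120. The level of Insig2 as a ratio to Insig1 was 0.229, 0.356, 0.295 and 0.263 at day 60 and 0.317, 0.24, 0.226 and 0.285 at day 120, against 0.229, 0.113, 0.134 and 0.107 in isolated islets. This ratio lies within a library and does not depend on its scaling.

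Srebf2 had 10.5, 12.1, 14 and 19.4 FPKM at day 60 and 21.3, 23.6, 17.4 and 23.8 FPKM at day 120, against 20.5, 30.1, 32.4 and 24.8 FPKM in isolated islets. All day 60 libraries lay below all isolated islets, and the day 120 libraries overlapped with isolated islet replicate 1. Its log2 change was -0.91 ± 0.21 at day 60 (limma adjusted p = 0.00467) and -0.30 ± 0.21 at day 120 (limma adjusted p = 0.271). The endocrine genes Chga and Pcsk2 stood in the same order over day 60 replicates 1 to 4, Chga at 1290, 2300, 3900 and 6230 FPKM and Pcsk2 at 246, 437, 618 and 830 FPKM. Chga itself fell at day 60, with a log2 change of -1.12 ± 0.38 (limma adjusted p = 0.0327). With scaling to the endocrine genes the day 60 call of Srebf2 was lost (limma adjusted p = 0.0857). Its log2 change was then -0.73, where the median of all genes moved from 0.265 to 0.445. The part of endocrine content in the level of Srebf2 was not tested. Day 120 grafts exceeded day 60 grafts by a log2 of 0.61 ± 0.21, with an unadjusted p = 0.011 and a limma adjusted p = 0.49, which did not pass. Srebf1 had 20.3 to 26.9 FPKM at day 60 and 23.8 to 27.6 FPKM at day 120, against 21.5 to 26.5 FPKM in isolated islets, a log2 change of 0.00 ± 0.14 and 0.12 ± 0.14. Within libraries, the ratio of Srebf2 to Srebf1 was 0.395 to 0.844 at day 60 and 0.637 to 0.913 at day 120, against 0.887 to 1.22 in isolated islets. Scap had 9.08 to 16.8 FPKM at day 60 and 14.9 to 20.4 FPKM at day 120, against 12.8 to 14.3 FPKM in isolated islets. Every day 120 library lay above the isolated islets for Scap, yet the log2 change of 0.34 ± 0.18 did not pass (limma adjusted p = 0.162).

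**Figure D3:**
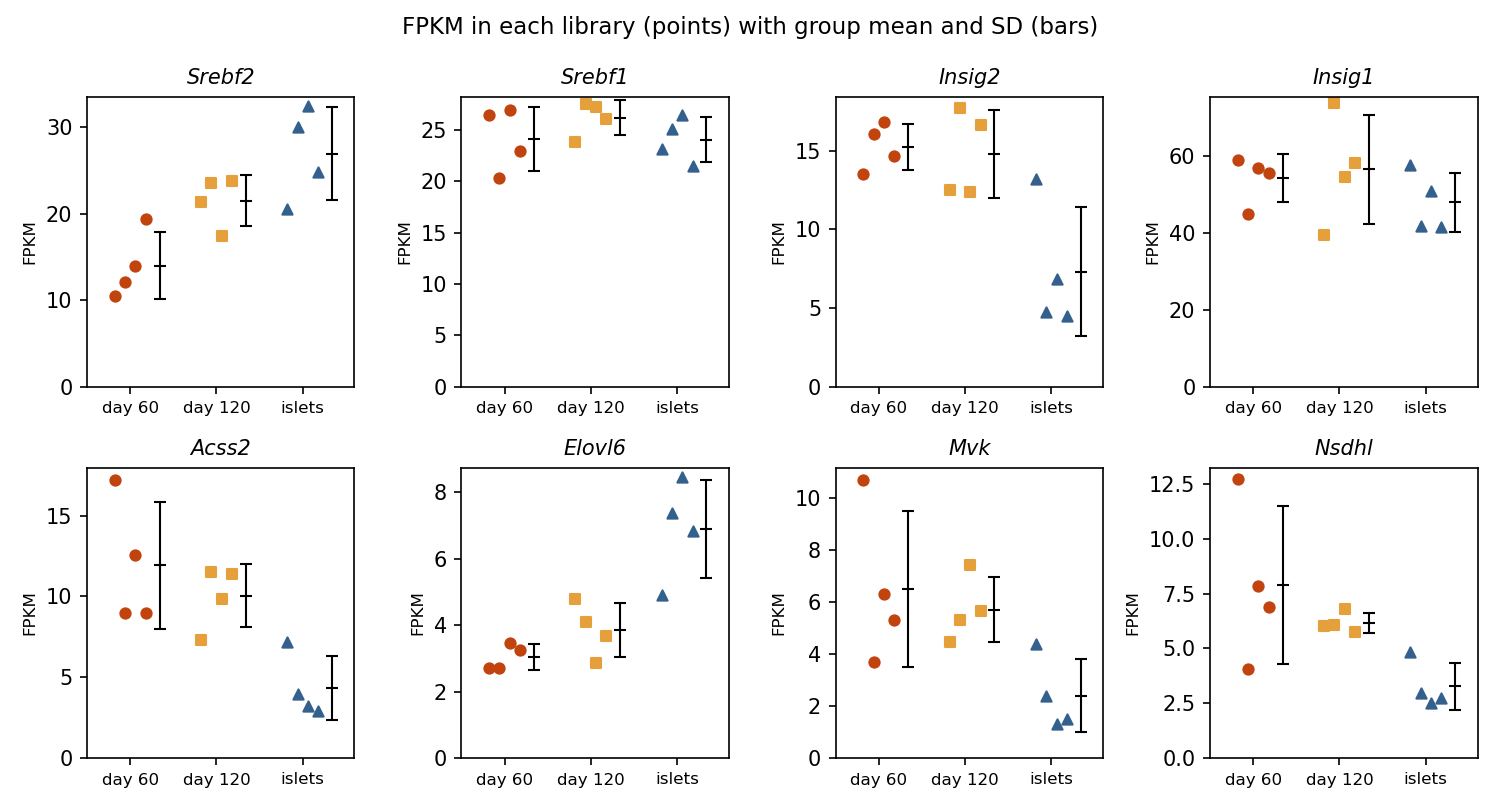
FPKM (y axis) in each library (points) of day 60 grafts, day 120 grafts and isolated islets (x axis) for 8 genes, with the mean and SD of each group beside the points. Srebf2 lies lowest at day 60 and Srebf1 is level, while 3 of the 4 isolated islets of Insig2 lie at 6.82 FPKM or less, under all grafts.

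Stard4, which carries cholesterol between membranes, had 1.87, 2.51, 2.74 and 1.39 FPKM at day 60 and 3.23, 3.8, 1.78 and 2.13 FPKM at day 120, against 6.04, 3.18, 3.69 and 2.31 FPKM in isolated islets. The groups overlapped and the log2 change of -0.585 ± 0.26 at day 60 did not pass (limma adjusted p = 0.0847).

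Of the 5 genes of fatty acid supply, Acss2 rose and Elovl6 fell at both times. Acss2, which makes acetyl-CoA from acetate, had 17.2, 8.95, 12.6 and 8.95 FPKM at day 60 and 7.33, 11.5, 9.86 and 11.4 FPKM at day 120, against 7.2, 3.98, 3.21 and 2.89 FPKM in isolated islets. Every graft library lay above every isolated islet library, the nearest being day 120 replicate 1 and isolated islet replicate 1. Its log2 change was 1.30 ± 0.27 at day 60 (limma adjusted p = 0.00298) and 1.10 ± 0.27 at day 120 (limma adjusted p = 0.0116), the largest rise among the 31 genes at both times. Elovl6, which lengthens saturated fatty acids, had 2.7, 2.7, 3.47 and 3.25 FPKM at day 60 and 4.79, 4.08, 2.86 and 3.66 FPKM at day 120, against 4.92, 7.36, 8.45 and 6.84 FPKM in isolated islets. All grafts lay below all isolated islets. The log2 change of Elovl6 was -0.95 ± 0.19 at day 60 (limma adjusted p = 0.00247) and -0.70 ± 0.19 at day 120 (limma adjusted p = 0.0169). Its day 120 call was lost without isolated islet replicate 2, 3 or 4 or day 120 replicate 3.

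Acly, which makes acetyl-CoA from citrate, was the highest of the 31 genes in every group. It had 103, 140, 205 and 222 FPKM at day 60 and 324, 268, 241 and 241 FPKM at day 120, against 247, 217, 246 and 188 FPKM in isolated islets. Neither graft group passed against isolated islets (limma adjusted p = 0.117 and 0.42). Day 120 grafts all lay above day 60 grafts, by a log2 of 0.73 ± 0.24, with an unadjusted p = 0.00868 and a limma adjusted p = 0.49. Fads1 and Fads2, the desaturases of polyunsaturated fatty acids, did not pass. Fads1 averaged 11.15 ± 2.65 FPKM at day 60 and 10.95 ± 2.54 FPKM at day 120, against 8.62 ± 1.61 FPKM in isolated islets (SD, n = 4 each), and Fads2 had 4.58 to 10.6 FPKM at day 60 and 5.8 to 9.96 FPKM at day 120, against 3.97 to 13.6 FPKM in isolated islets, with 13.6 FPKM in replicate 1.

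Between the graft groups, 0 of the 31 genes passed for day 120 against day 60, where 2 of all genes tested (0.0149%) passed, 1 higher (0.00744%) and 1 lower (0.00744%). At an unadjusted p under 0.05 there were 4 of the 31 genes, namely Sqle, Srebf2, Scap and Acly, all higher at day 120. These were 12.9% of the 31 genes, beside 1356 of all genes tested (10.1%). Their log2 differences were 0.64 ± 0.25 for Sqle, 0.61 ± 0.21 for Srebf2, 0.46 ± 0.18 for Scap and 0.73 ± 0.24 for Acly. All 4 stood in the same order over day 60 replicates 1 to 4 as Chga and Pcsk2, whose own log2 differences were 0.98 ± 0.38 and 0.70 ± 0.30 (limma unadjusted p = 0.0248 and 0.0353). The share of all genes tested in that order was not computed, and the part of endocrine content was not tested. With scaling to the endocrine genes the differences were -0.02 for Sqle, -0.04 for Srebf2, -0.18 for Scap and 0.05 for Acly. That scaling moved the median of all genes from 0.031 to -0.556, and all 4 genes stayed above this median. The libraries did not overlap for 2 genes, with Acly higher and Acat2 lower at day 120, where 4.29% of all genes did not overlap (2.91% higher and 1.38% lower). Same-numbered libraries of the 2 graft groups deviated together from their group means, and with the replicate number as a block 0 of the 31 genes passed.

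Single libraries stood apart. Isolated islet replicate 1 was the highest of its group for 21 of the 31 genes (67.7%), against 49.4% of all genes tested. Day 120 replicate 2 was the highest of its group for 20 genes (64.5%), against 25.7% of all genes, and the lowest for 0. Day 60 replicate 2 was the lowest of its group for 18 genes (58.1%), against 29.1% of all genes. Without isolated islet replicate 1, 14 of the 31 genes passed at day 60, or 45.2%, where 51.5% of all genes tested passed. Of these, 10 were higher and 4 lower, and they held the 9 genes reported together with Mvd, Idi1 and Dhcr7 as higher and Fdps and Fdft1 as lower. Without both isolated islet replicate 1 and day 60 replicate 1, 15 passed at day 60 and 14 at day 120. These were 48.4% and 45.2% of the 31 genes, below the 57.9% and 56.5% of all genes. Leaving out any 1 library kept all 9 day 60 genes. At day 120 the count without 1 library ran from 2 to 12, with 12 without isolated islet replicate 1 or day 60 replicate 1, 2 without isolated islet replicate 2 or 4, and 3 without isolated islet replicate 3 or day 120 replicate 3. As shares these ran from 6.45% to 38.7% of the 31 genes, while 13.8% to 45.2% of all genes passed.

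The adipocyte markers differed most among the day 60 grafts, where their sum was 17260, 1082, 5305 and 520.6 FPKM in replicates 1 to 4. For 12 of the 31 genes (38.7%), replicates 1 and 3 were the 2 highest day 60 libraries, against 21.6% of all genes tested, and for 0 of the 31 they were the 2 lowest, against 15.6% of all genes. These 12 genes were Acat2, Hmgcs1, Mvk, Pmvk, Idi1, Nsdhl, Hsd17b7, Ebp, Sc5d, Srebf1, Insig1 and Acss2, which include 6 of the 7 that rose at day 60. The pattern and the calls rest on the same day 60 values, so their overlap is not a separate result. Its share among all genes that rose was not computed. The macrophage markers, at 5974, 659.5, 1532 and 770.1 FPKM, and the fibroblast markers, at 7583, 976.8, 1687 and 1192 FPKM, were also highest in day 60 replicates 1 and 3. Insig2, the other riser, had its lowest day 60 value in replicate 1. At day 120 the order was different. The adipocyte sum was 1521, 433.8, 1572 and 538.4 FPKM in replicates 1 to 4, and replicate 2, with the lowest sum, was the highest library for 20 of the 31 genes. Day 60 replicate 4, with an adipocyte sum of 520.6 FPKM, had 16.4 FPKM of Ebp, 6.9 FPKM of Nsdhl, 4.96 FPKM of Acat2 and 8.95 FPKM of Acss2, all above every isolated islet library. Without day 60 replicate 1, all 9 genes passed at day 60. The part of the fat, macrophage and fibroblast cells of the other grafts was not tested.

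**Figure D4:**
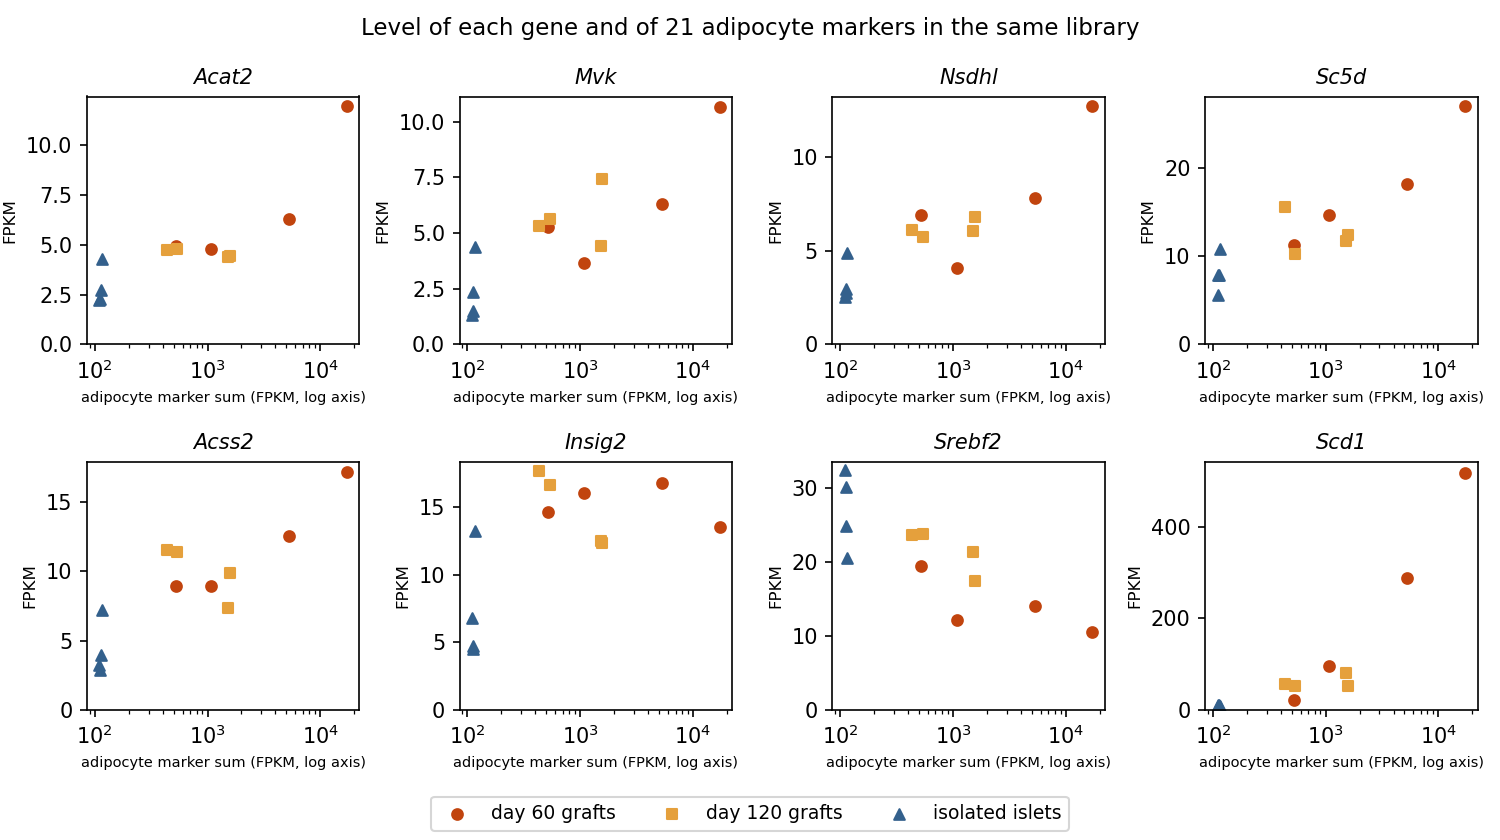
FPKM of 8 genes (y axes) against the summed FPKM of 21 adipocyte markers in the same library (x axes, log scale), for day 60 grafts (circles), day 120 grafts (squares) and isolated islets (triangles). Acat2, Nsdhl, Sc5d and Acss2 are highest in day 60 replicate 1 at 17260 FPKM of adipocyte markers, Insig2 is not, and Scd1, a fat synthesis gene outside the 31, reaches 518 FPKM there.

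Other genes of the pathway were read from lists chosen with earlier results of these data known. Among 16 tested genes of sterol and isoprenoid synthesis outside the 31, 6 rose and 2 fell at day 60, and 7 rose and 1 fell at day 120, 50% of the list at either time beside 43.7% and 31.4% of all genes, with a median log2 change of 0.54 and 0.23 beside 0.265 and 0.302 over all genes. The 3 best-ranked risers were Ebpl, a relative of Ebp, at a log2 of 1.325 and 0.945 for day 60 and day 120, the mitochondrial thiolase Acat1 at 1.69 and 1.40, and Coq2 of ubiquinone synthesis at 0.78 and 0.80. Their day 120 calls were lost in 4 of the other settings for Ebpl, 2 for Acat1 and 1 for Coq2.

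Among 14 tested genes of SREBP processing and its cofactors, 1 rose and 3 fell at day 60, and 3 rose and 1 fell at day 120, 28.6% of the list at either time beside 43.7% and 31.4% of all genes, with a median of 0.13 and 0.19. Nfya, a subunit of the CCAAT-binding NF-Y, had 5.87, 6.6, 5.38 and 5.44 FPKM at day 60 and 4.97, 5.41, 4.66 and 6.43 FPKM at day 120, against 3.2, 1.67, 1.68 and 1.28 FPKM in isolated islets. All grafts lay above all isolated islets, with a log2 change of 1.24 ± 0.20 at day 60 (limma adjusted p = 0.000859) and 1.14 ± 0.20 at day 120 (limma adjusted p = 0.00301). Sp1, the factor of the GGGCGG box, fell at both times, by 0.64 and by 0.59 on the log2 scale. Erlin2 rose at day 120 at a log2 of 0.85. The day 120 call was lost in 6 of the other settings for Erlin2 and in 5 for Sp1. Among 15 tested genes of cholesterol uptake and trafficking, 4 rose and 5 fell at day 60, and 1 rose and 0 fell at day 120 (60% and 6.67% of the list, beside 43.7% and 31.4% of all genes), with a median of 0.035 and 0.02. Stard3 rose at both times, and Lrp1 and Lipa rose at day 60.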

How the data were processed

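Total RNA of 12 mouse libraries, 4 each of day 60 grafts, day 120 grafts and isolated islets, was measured. Per the labels' protocols, cDNA was made from 10 ng of total RNA with a SMARTer Ultra Low Input kit, and NEBNext ChIP-seq libraries were read on a HiSeq instrument. The authors deposited 1 table of FPKM values per gene symbol. The submitters' processing notes name mm9 as the mouse build and TopHat2 and Cufflinks 2.1.1 as tools, and not the annotation or the options. FPKM give no read counts, so the depth is unknown and no count test was run.

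Values were taken as log2(FPKM + 1), with no further scaling, which understates the change of low genes. Genes with at least 1 FPKM in at least 4 libraries (13433 of 23234) were fitted with limma 3.58.1 (R 4.3.3, statmod 1.5.0), with a term for group, all 12 libraries in 1 fit and moderated variances (trend and robust options). The two-sided p-values were adjusted by Benjamini-Hochberg over all genes tested, with a threshold of 0.05. The fit was tested on simulated data, with independent normal values, the same spread in every group and levels raised above the low range. That setting differs from these data, so it does not cover the low genes or the wider day 60 spread. The 31 genes, the pathway and marker lists and the settings tried were chosen with earlier results of these data known. All 31 genes are named, and of each pathway list up to 4 genes past the threshold in either comparison with isolated islets, smallest p first, and 8 cell type genes as context. Some genes that this rule names are not reported here.

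Same-numbered libraries of the graft groups deviated together (correlations of 0.18 to 0.442), a pairing seen in the data and not given by the labels. Those of grafts and isolated islets did not (-0.078 to 0.02). Within groups, libraries correlated at 0.792 to 0.930 at day 60 and 0.929 to 0.962 at day 120, against 0.904 to 0.973 in isolated islets. Promoters came from RefSeq on GRCm38.p6 and exon overlaps from GENCODE, neither of the build used for the FPKM.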

Additional observations from a re-analysis of the deposited data

Results flagged for a closer look

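Each of the 177 groups of 4 libraries of a named gene was checked for a library far from the other 3, and 13 groups were found, 5 of them among the 93 groups of the 31 genes. Chance finds about 1 in 20 such groups.

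Among the 31 genes, Idi1, the isoprenoid isomerase, had 15.8 FPKM in day 120 replicate 2, against 7.84 to 8.32 FPKM in the other day 120 grafts. Tm7sf2, a sterol reductase, had 1.99 FPKM in day 60 replicate 1, against 6.71 to 8.37 FPKM in the others. Among isolated islets, Ggps1 had 11.9 FPKM in replicate 1 (others 8.89 to 9.27), Sqle 28.2 FPKM in replicate 4 (others 32.4 to 32.9) and Scap 14.3 FPKM in replicate 3 (others at 12.8).

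Isolated islet replicate 1 held 5 of the 13, in each the highest library: besides Ggps1, Acat1 had 18.2 FPKM (others 5.52 to 6.32), Erlin2 17.3 FPKM (others 6.79 to 7.59), Pnpla3 0.749 FPKM (others 0.342 to 0.362) and Thrsp 4.4 FPKM (others 0.823 to 0.919). Stard3 had 11 FPKM in day 60 replicate 1 (others 6.56 to 6.87), and the endocrine protease gene Pcsk2 had 604 FPKM in isolated islet replicate 4 (others 685 to 702). The acinar gene Ctrb1 had 0.098 FPKM in day 60 replicate 4 and 0.133 FPKM in day 120 replicate 4, where the other grafts of each group were listed at 0.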

How the results depend on the processing

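Of 739 values of the 31 genes under the other settings in each comparison with isolated islets, 671 at day 60 and 642 at day 120 kept their side of the threshold, 11 and 33 calls were lost, 57 and 64 were gained and 0 changed direction once past it. The cause of these shifts was not tested. FPKM without read counts limit what can be said of the low genes, such as Hsd17b7 and Stard4.

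At day 60, the 9 calls among the 31 genes became 14 with upper-quartile scaling, 2 with scaling to endocrine genes, 22 with array weights (a fit of their weights that stopped before its tolerance), 18 with gene-by-gene array weights (chosen after seeing the data) and 15 without both isolated islet replicate 1 and day 60 replicate 1. Leaving out 1 library gave 9 to 14. The 5865 calls over all genes became 3180 with scaling to endocrine genes, 10359 with array weights and 9356 gene by gene, and ran from 4074 to 6861 without 1 library. At day 120, the 6 calls became 0 with scaling to endocrine genes, 20 with either kind of array weights, 14 without both named libraries and 12 in a fit of the 2 groups compared, and ran from 2 to 12 without 1 library. The 4212 calls over all genes became 654, 8943 (gene by gene 8853) and 7437 under scaling to endocrine genes, array weights and without both libraries, and ran from 1839 to 6004. For day 120 against day 60, the 0 calls became 8 with array weights and 0 gene by gene. The 2 over all genes became 4 with no filter on low values, 1 with a filter at 5 FPKM, 2874 with array weights, 459 gene by gene and 1 without both libraries, and ran from 1 to 20.

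With the replicate number as a block over all libraries, 9 members passed at day 60, 8 at day 120, where Ebp and Sc5d were added, and 0 for day 120 against day 60. Of all calls over all genes at day 60, 71.8% were higher as reported, 60.6% with upper-quartile scaling, 45.2% with quantile normalization and 49.1% with scaling to the sum without hormone and acinar genes. At day 120 these shares were 77.6%, 63.8%, 45.6% and 64.3%, and 24.9% with scaling to endocrine genes.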

Other observations

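Among 21 tested genes of fatty acid synthesis outside the 31, 7 rose and 0 fell at day 60, and 4 rose and 0 fell at day 120. These were 33.3% and 19% of the list, below the 43.7% and 31.4% of all genes, with a median log2 change of 0.58 and 0.29 beside 0.265 and 0.302 over all genes. Scd1, the desaturase that makes monounsaturated fatty acids, had 518, 94.9, 289 and 20.9 FPKM at day 60 and 81, 57, 51.5 and 51.7 FPKM at day 120, against 8.33 to 10.3 FPKM in isolated islets, a log2 change of 3.72 ± 0.72 at day 60 (limma adjusted p = 0.00255) and 2.57 ± 0.72 at day 120 (limma adjusted p = 0.0211). Thrsp, a lipogenic regulator, had 240, 31, 64.5 and 10.5 FPKM at day 60 and 8.58 to 22.3 FPKM at day 120, against 0.823 to 4.4 FPKM in isolated islets. Pnpla3, a lipid droplet protein, had 30.8, 7.61, 22.1 and 3.36 FPKM at day 60 and 3.36 to 7.77 FPKM at day 120, against 0.342 to 0.749 FPKM. In these 3 genes the day 60 libraries stood in the same order as their adipocyte marker sums, replicate 1 above 3 above 2 above 4. Aacs, which makes acetoacetyl-CoA from ketone bodies for lipid synthesis, was spread less widely, at 13.5 to 18.9 FPKM at day 60 and 14 to 18.1 FPKM at day 120, against 7.32 to 13.2 FPKM in isolated islets, and rose at both times. The day 120 calls of Scd1 and Thrsp were each lost in 4 of the other settings, that of Aacs in 5 and that of Pnpla3 in 1.

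Among 13 tested genes of oxysterols, LXR targets and sterol efflux, 6 rose and 1 fell at day 60, and 6 rose and 0 fell at day 120. These were 53.8% and 46.2% of the list, beside 43.7% and 31.4% of all genes, with a median log2 change of 0.49 and 0.63 beside 0.265 and 0.302 over all genes. Apoe, the apolipoprotein of sterol export, had 2220, 219, 578 and 508 FPKM at day 60 and 298, 156, 197 and 391 FPKM at day 120, against 68.6 to 87 FPKM in isolated islets. Cyp27a1, which makes an oxysterol, had 11.9, 5.93, 4.61 and 3.61 FPKM at day 60 and 1.47 to 5.84 FPKM at day 120, against 0.136 to 0.774 FPKM. Pltp rose at a log2 of 3.065 and 1.81 and Apoc1 at 4.65 and 2.65, for day 60 and day 120. The day 120 call of Apoe was lost in 9 of the other settings, that of Apoc1 in 8, of Pltp in 6 and of Cyp27a1 in 3. The macrophage markers, which summed to 659 to 5970 FPKM at day 60 and 469 to 811 FPKM at day 120, against 88.3 to 139 FPKM in isolated islets, were also highest in day 60 replicate 1, and their part in these rises was not tested.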
